A study of Homo sapiens with 32 samples.

Results

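A set of 74 genes, of 18980 protein-coding genes listed, was at a low level in control RH4 cells and stood higher in each library of cells exposed to dCBP or IHK-44 for 6 h. RH4 is an established human line of alveolar rhabdomyosarcoma, a muscle-like childhood tumour. The genes were chosen on their levels in CPM (the reads of a gene scaled to the same total of coding reads in every library). A gene was taken when the mean of the 4 control libraries was under 2 CPM and each of the 4 libraries of dCBP or IHK-44 at 6 h held at least 1.5 CPM and at least 2.5 times the control mean plus 0.2. Histone, ZNF, HOX and PCDH symbols and RND1 were left out beforehand, which removed HOXC13, RND1 and ZNF774. Of the 7457 genes that had a control mean under 2 CPM and an admitted symbol, 74 met the limits. Their levels in these 8 libraries are therefore a description of the choice, and no test was made on them. The libraries that the rule did not use, those of dCBP and IHK-44 at 2 h and all those of A485 and JQAD, carry the tests. All 74 genes entered these tests, since their 4 libraries of 6 h alone put them past the filter of a mean of 0.3 CPM over the 20 libraries.

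CBP and p300, encoded by CREBBP and EP300, are large coactivators that are brought to enhancers and promoters by transcription factors. They acetylate histones, above all at active enhancers. Genes that keep a cell's identity, such as MYOD1 and MYOG in rhabdomyosarcoma, are known to lean on them strongly. Promoters rich in CpG (a C followed by a G) form CpG islands, which are mostly free of DNA methylation and start many housekeeping and developmental genes. A485 is a catalytic inhibitor of the acetyltransferase site of CBP and p300. The study's labels describe the compounds as inhibitors or degraders of CBP/p300 without saying which of dCBP, IHK-44 and JQAD is which, and no structure is given for them.

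Total RNA of RH4 cells was sequenced at 2 h and 6 h of exposure. The agents were JQAD, IHK-44, dCBP and A485, each given at a low dose of 100 nM and a high dose of 1000 nM, and the controls were DMSO (the solvent) and a condition called NT, whose meaning the labels leave unsaid. Each of these 20 conditions had 1 library, and all came from the same line with no further genotype. Control means are over the DMSO and NT libraries of both times. In the main comparisons between compounds, the doses of a compound at a given time stood in for replicates, so the spread in those p-values contains the dose effect. The test of A485 dose had dose terms instead, and its spread contains any difference in dose effect between times or among the other compounds. Fits with dose as a block took out a dose effect shared by the compounds. Separate cultures behind the libraries are not stated. The 11 ChIP-seq samples and the 1 ChRO-seq sample (nascent RNA) of the series were not analysed here.

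The libraries held between 13466631 and 16799327 reads in coding genes. Reads outside coding genes made up 5.63% to 6.43% in the controls and 8.20% to 11.3% in the dCBP and IHK-44 libraries of both times. The labelled line showed its markers: 10 of 11 muscle and rhabdomyosarcoma genes had a control mean of at least 1 CPM, with MYF5 near 0, and their summed level ran from 4587 to 4998 CPM in the controls and from 2288 to 3028 CPM in the 4 libraries of dCBP and IHK-44 at 6 h. Neuronal markers summed to between 8.72 and 11.4 CPM in the controls and to between 16.2 and 28.9 CPM in those 4 libraries, almost all of it TUBB3, while SNAP25, STMN2 and ELAVL4 were listed at 0 in every library. Fibroblast markers summed to between 32.2 and 39.6 CPM in the controls and to between 15.4 and 22.2 CPM in those 4 libraries, with PDGFRA at a mean of 14.9 CPM in the controls and 2.31 CPM at 6 h. Immune, epithelial and endothelial markers summed to at most 2.89 CPM in any of these libraries. In bulk RNA, fewer cells of a type and less RNA per cell cannot be told apart.

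Across the 74 genes, the median control mean was 0.997 CPM and the median over the 4 libraries of dCBP and IHK-44 at 6 h was 4.92 CPM. A gene at these levels rests on few reads. The lowest control library held between 0 and 28 reads of a member, and the lowest of the 4 libraries at 6 h held between 22 and 159. The mean at 6 h was between 2.70 and 11.7 times the control mean plus 0.2, with RIMKLA at the top. Just inside the fold limit were HEY2, VPS37D and SPAG1, whose lowest library was 2.50, 2.51 and 2.53 times the control mean plus 0.2. Just outside it were SLC15A2 at 2.45, TMEM74 at 2.44 and PROX2 at 2.41. At the limit of 1.5 CPM, the lowest library at 6 h was 1.56 CPM for RNASE4 and 1.67 CPM for both NKD1 and SNCAIP, while RAET1G and THEM6 at 1.49 and DLL4 at 1.43 stayed outside. There is thus no gap in the data at either limit.

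**Figure D1:**
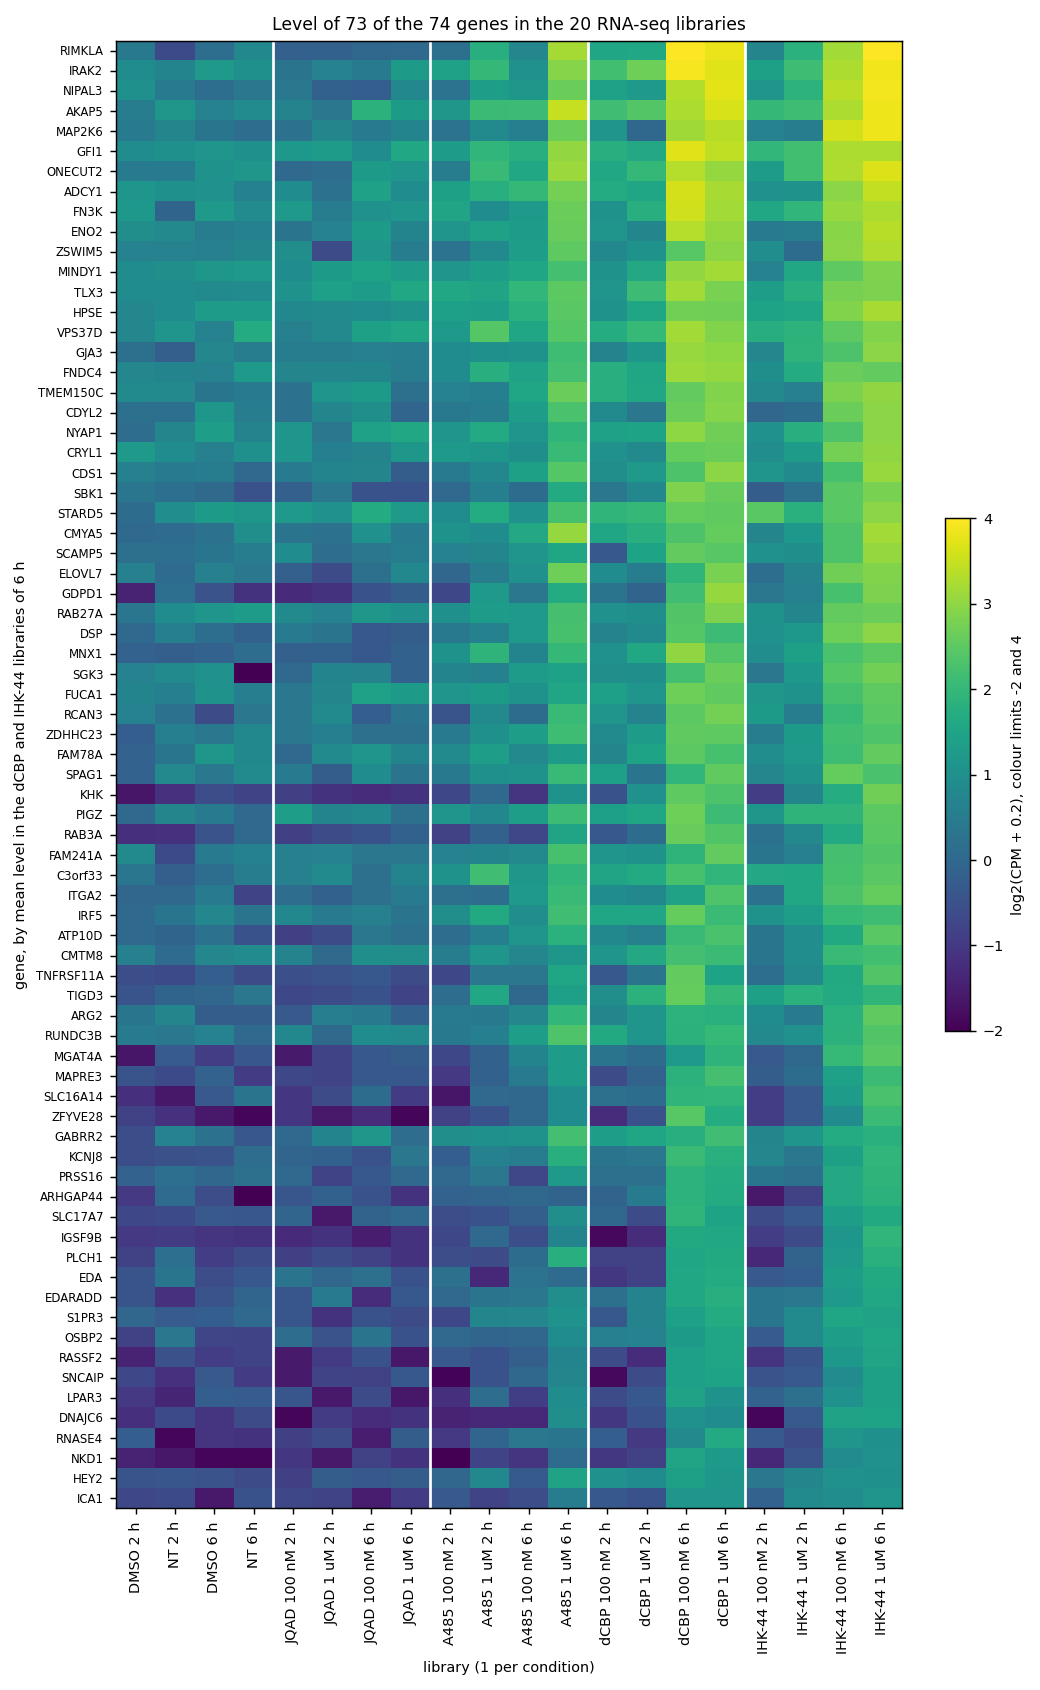
Level of 73 of the 74 genes (rows, ordered by their mean in the dCBP and IHK-44 libraries of 6 h) in each of the 20 libraries (columns), as log2(CPM + 0.2), with white lines between compounds. The 4 rightmost columns of 6 h for dCBP and IHK-44 are bright by the choice of genes. The A485 column of 1000 nM at 6 h is the brightest of the other columns, and the JQAD columns look like the DMSO and NT columns.

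The summed level of the 74 genes ran from 68.3 to 79.0 CPM in the 4 control libraries. For dCBP at 6 h the sum was 407 CPM at the high dose and 409 CPM at the low dose, and for IHK-44 it was 456 CPM and 342 CPM. At 2 h the sums were 141 and 124 CPM for dCBP and 139 and 106 CPM for IHK-44. A485 gave 282 CPM at 1000 nM and 123 CPM at 100 nM after 6 h, and 130 CPM and 87.7 CPM after 2 h. The 4 JQAD libraries stayed between 70.4 and 88.3 CPM. The choice of genes fixes the high place of dCBP and IHK-44 at 6 h and the low place of the controls. Of the 6 h libraries it left free, A485 at 1000 nM had the highest sum, A485 at 100 nM the next and both JQAD libraries the lowest.

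Low genes as a class also stood above their control mean in the dCBP, IHK-44 and A485 libraries. For dCBP at 2 h, the 74 genes summed to 1.89 and 1.67 times their control mean (1000 and 100 nM), against 1.91 and 1.90 times for near-silent genes, those with a control mean of 0.2 CPM or less, members left out. For IHK-44 at 2 h the 74 genes were at 1.87 and 1.43 times and the near-silent genes at 1.61 and 1.31 times. The other genes with a control mean under 2 CPM were at 1.42 and 1.40 times with dCBP and at 1.24 and 1.07 times with IHK-44. At 2 h the 74 genes thus stood above the other low genes in all 4 libraries, and above the near-silent genes in both of IHK-44 and neither of dCBP. At 6 h the ratios separated, with 1.66 to 2.01 for the near-silent genes and 4.60 to 6.13 for the chosen genes in dCBP and IHK-44, which the choice fixes. In the A485 library of 1000 nM at 6 h, which the choice did not use, the near-silent genes were at 1.98 times their control mean and the 74 genes at 3.80 times. In the JQAD libraries these ratios ran from 1.02 to 1.53 for the near-silent genes and from 0.947 to 1.19 for the 74 genes. The other low genes ran from 0.899 to 1.21 times with JQAD. Single control libraries ran from 0.854 to 1.28 times for the near-silent genes and from 0.899 to 1.22 times for the other low genes. Both sets were picked for low control values, which favours ratios above 1 in other libraries. The part of any general shift in the results below was not tested.

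**Figure D2:**
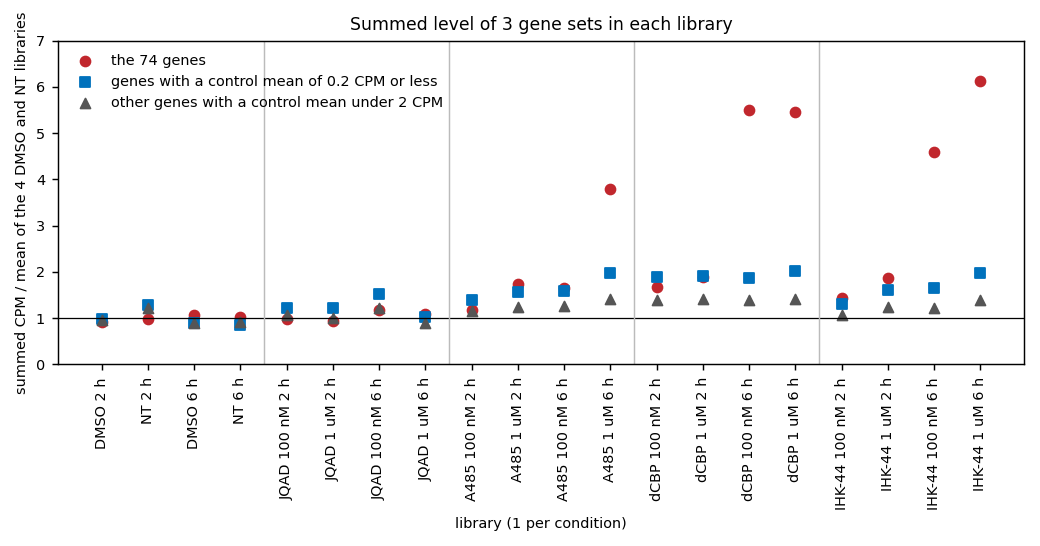
Summed CPM of 3 gene sets in each library, divided by the mean of the 4 DMSO and NT libraries (linear axis, black line at 1): the 74 genes (circles), genes with a control mean of 0.2 CPM or less (squares) and the other genes with a control mean under 2 CPM (triangles). The circles part from the squares at 6 h with dCBP, IHK-44 and 1000 nM A485, and lie near them at 2 h, below with dCBP and above with IHK-44. The triangles lie below the circles in all 8 dCBP and IHK-44 libraries.

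The 10 genes with the highest level at 6 h were RIMKLA, IRAK2, NIPAL3, AKAP5, MAP2K6, GFI1, ONECUT2, ADCY1, FN3K and ENO2. RIMKLA, which makes the neuronal dipeptide N-acetylaspartylglutamate, was at 1.14, 0.926, 0.437 and 1.54 CPM in DMSO 2 h, DMSO 6 h, NT 2 h and NT 6 h. It was at 13.9 and 15.6 CPM with 1000 and 100 nM dCBP and at 18.6 and 8.75 CPM with 1000 and 100 nM IHK-44 at 6 h. The same 4 treatments at 2 h gave 2.81, 2.72, 3.34 and 1.45 CPM, and the 4 JQAD libraries lay between 0.699 and 0.840 CPM. A485 gave 3.17 CPM at 2 h and 8.90 CPM at 6 h with 1000 nM, against 0.961 and 1.501 CPM with 100 nM. RIMKLA was thus high with A485 only at the upper dose, and this dose difference passed the test (log2 difference 2.12, SE 0.35, adjusted p = 0.004739, edgeR quasi-likelihood test with Benjamini-Hochberg adjustment over 13294 genes).

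The promoters of 4 members are shown. AKAP5 passed a test in 2 comparisons, RIMKLA and DSP had the smallest adjusted p of a comparison, and SNCAIP had the fewest CpG of all members with an entry. They do not span the members, since ZDHHC23 held 52 CpG. Each stretch covers 250 bases before to 50 bases after the start in RefSeq's GRCh38.p14 annotation, on the plus strand, with every CpG in capitals. RIMKLA (chr1:42380542-42380841) holds 46 CpG, AKAP5 (chr14:64465249-64465548) 39, DSP (chr6:7541421-7541720) 37 and SNCAIP (chr5:122390839-122391138) 4.
RIMKLA: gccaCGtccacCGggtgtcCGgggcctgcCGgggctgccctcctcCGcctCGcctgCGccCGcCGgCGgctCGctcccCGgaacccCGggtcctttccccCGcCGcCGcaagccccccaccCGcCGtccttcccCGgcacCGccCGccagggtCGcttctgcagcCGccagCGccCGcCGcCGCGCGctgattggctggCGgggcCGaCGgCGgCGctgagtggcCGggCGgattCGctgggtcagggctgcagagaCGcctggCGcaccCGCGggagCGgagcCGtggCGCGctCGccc
AKAP5: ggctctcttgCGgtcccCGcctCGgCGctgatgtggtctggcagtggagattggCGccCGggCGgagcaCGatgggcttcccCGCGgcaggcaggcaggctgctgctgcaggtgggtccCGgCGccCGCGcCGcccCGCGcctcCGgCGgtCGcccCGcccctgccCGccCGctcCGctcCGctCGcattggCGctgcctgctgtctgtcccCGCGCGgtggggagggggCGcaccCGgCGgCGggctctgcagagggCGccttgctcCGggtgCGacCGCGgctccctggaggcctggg
DSP: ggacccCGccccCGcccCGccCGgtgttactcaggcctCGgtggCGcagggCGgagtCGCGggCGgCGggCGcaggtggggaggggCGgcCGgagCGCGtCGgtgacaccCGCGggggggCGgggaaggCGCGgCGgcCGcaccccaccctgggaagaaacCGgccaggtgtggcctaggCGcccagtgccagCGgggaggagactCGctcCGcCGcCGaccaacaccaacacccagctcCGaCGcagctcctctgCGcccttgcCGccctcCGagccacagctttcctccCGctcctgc
SNCAIP: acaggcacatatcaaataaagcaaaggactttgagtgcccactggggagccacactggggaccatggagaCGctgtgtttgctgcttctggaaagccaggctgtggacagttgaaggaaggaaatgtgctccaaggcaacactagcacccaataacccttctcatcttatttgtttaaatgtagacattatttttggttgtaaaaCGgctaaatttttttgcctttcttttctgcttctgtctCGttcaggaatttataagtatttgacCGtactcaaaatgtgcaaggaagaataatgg

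Promoter sequences were found by symbol for 62 of the 74 members (83.8%). Their median CpG observed/expected ratio (CpG count over that expected from the C and G content) was 0.833 and their median GC content 70.7%. A ratio of at least 0.6 with a GC content of at least 50%, the usual mark of a CpG island, was met by 52 of the 62 (83.9%). Among 9456 promoters of genes with a control mean of at least 2 CPM it was met by 82.9%, with a median ratio of 0.853. Promoters of these low genes thus had a CpG content close to that of expressed genes. Among 1884 promoters of other low genes with a control mean in the range of the members, the mark was met by 45.7%, with a median ratio of 0.556. Only 74.5% of those genes had a promoter entry, so the size of their difference from the members is uncertain, and it was not tested. Besides SNCAIP (0.304), the members with the lowest ratios were GABRR2 (0.276), OSBP2 (0.291), RASSF2 (0.318) and SLC16A14 (0.384), named after their values were seen. The letters TATAAA, read on the gene's strand, were in 1 of the 62 promoters (1.61%), against 3.54% of the 9456 promoters of genes with a control mean of at least 2 CPM and 6.88% of all 15148 promoters matched. CCAAT on either strand was in 19 (30.6%), against 37.5% and 36.6%.

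**Figure D3:**
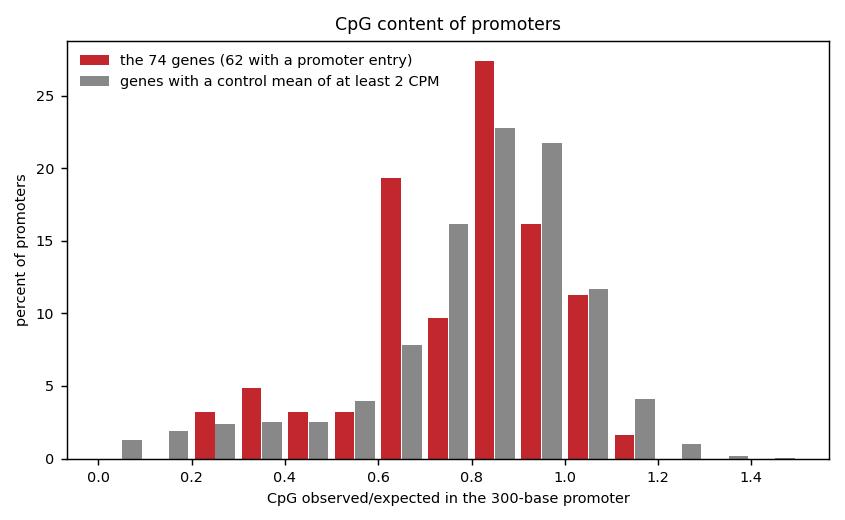
Distribution of the CpG observed/expected ratio in 300-base promoters, as the percent of promoters in each bin of width 0.1, for the members with a promoter entry (red) and for genes with a control mean of at least 2 CPM (grey). Both sets have most of their promoters above 0.6, and 52 of 62 members pass the CpG island mark.

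Genes for signal relays formed a group of 10, with a median of 5.88 CPM at 6 h: the kinases IRAK2 (interleukin-1 and Toll-like receptor signals), MAP2K6 (activator of p38), SGK3 and SBK1, the cyclic AMP genes AKAP5 (anchor of protein kinase A) and ADCY1 (adenylyl cyclase), the calcineurin regulator RCAN3, the phospholipase PLCH1, RASSF2 and the WNT inhibitor NKD1. IRAK2 was between 1.44 and 2.12 CPM in the controls, at 12.9, 14.9, 14.4 and 9.46 CPM at 6 h (dCBP 1000 and 100 nM, IHK-44 1000 and 100 nM) and already at 6.21, 4.34, 4.23 and 2.44 CPM at 2 h. With A485 it was at 3.82 and 7.28 CPM (1000 nM, 2 h and 6 h) and at 2.52 and 1.84 CPM (100 nM), and with JQAD between 1.05 and 2.20 CPM. SGK3 was between 0 and 1.85 CPM in the controls and between 4.40 and 6.44 CPM at 6 h. MAP2K6 showed another time course. It stood between 0.901 and 1.499 CPM in the controls and at 0.813, 1.99, 1.26 and 1.38 CPM at 2 h, so these overlapped. At 6 h it was at 10.1, 8.64, 14.1 and 11.8 CPM, apart from the controls by the choice of genes. A485 took MAP2K6 to 6.04 CPM only in the library of 1000 nM at 6 h, the other 3 A485 libraries lying between 1.02 and 1.62 CPM.

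AKAP5 was between 1.26 and 2.06 CPM in the controls and at 5.10, 4.27, 4.23 and 3.82 CPM in dCBP 1000 and 100 nM and IHK-44 1000 and 100 nM at 2 h, above JQAD at 1.11 and 1.40 CPM. This difference passed the test (log2 difference 1.71, SE 0.43, adjusted p = 0.03768 with edgeR). At 6 h AKAP5 was at 12.2, 9.35, 14.1 and 9.35 CPM, and A485 gave 10.8 CPM with 1000 nM and 4.16 CPM with 100 nM. JQAD at 100 nM and 6 h gave 3.40 CPM, the highest of the JQAD libraries and above every control. AKAP5 overlaps ZBTB25, and since the counting is not stated to use strand their reads may not be separable. ZBTB25 was between 12.7 and 16.7 CPM in the controls and between 12.3 and 15.9 CPM at 6 h. ADCY1 passed the test of A485 against JQAD at 6 h, with 6.47 and 3.82 CPM against 1.68 and 2.52 CPM (log2 difference 1.20, SE 0.33, adjusted p = 0.03872 by edgeR).

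Transcription factors and a chromatin reader made up 7 members, with a median of 6.78 CPM at 6 h: the repressor GFI1, the homeobox factors TLX3 and MNX1, ONECUT2, the interferon regulatory factor IRF5, the Notch target HEY2 and CDYL2. GFI1 ran from 1.68 to 1.99 CPM in the controls and from 9.35 to 13.1 CPM in the 4 libraries of 6 h. ONECUT2 was between 1.19 and 2.06 CPM in the controls, between 8.11 and 12.6 CPM at 6 h with dCBP or IHK-44, and between 2.24 and 4.31 CPM at 2 h. With A485 it was at 3.94 and 8.40 CPM (1000 nM, 2 h and 6 h) against 1.26 and 2.80 CPM with 100 nM, which passed the test of dose (log2 difference 1.53, SE 0.29, adjusted p = 0.009723 by edgeR). HEY2 was the lowest of the group, between 0.451 and 0.562 CPM in the controls and between 1.80 and 2.48 CPM at 6 h. It stood at 2.55 CPM with 1000 nM A485 at 6 h, above all 4 of those libraries. IRF5 was between 0.840 and 1.52 CPM in the controls, between 1.91 and 2.72 CPM at 2 h and between 3.87 and 5.81 CPM at 6 h.

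Ligands, receptors, channels and an integrin gave 10 members, with a median of 3.42 CPM at 6 h. They include ectodysplasin (EDA) and the adaptor of its receptor (EDARADD), the receptor of RANK ligand TNFRSF11A, the lysophospholipid receptors S1PR3 and LPAR3, the GABA receptor subunit GABRR2, the potassium channel KCNJ8, the connexin GJA3 and the collagen receptor subunit ITGA2. GJA3 was between 0.687 and 1.52 CPM in the controls and between 4.82 and 8.28 CPM at 6 h. ITGA2 was between 0.386 and 1.19 CPM in the controls and at 4.87, 2.55, 5.83 and 4.82 CPM at 6 h (dCBP 1000 and 100 nM, IHK-44 1000 and 100 nM). With A485 at 6 h ITGA2 reached 3.92 CPM at 1000 nM and 2.12 CPM at 100 nM. KCNJ8 was between 0.480 and 0.901 CPM in the controls, between 1.03 and 1.52 CPM at 2 h and between 2.44 and 4.04 CPM at 6 h. Its 2 h libraries thus overlapped neither of the other sets, while the choice of genes sets the controls and the 6 h libraries apart. GABRR2 was between 0.480 and 1.37 CPM in the controls, between 1.45 and 2.74 CPM at 2 h and between 3.04 and 4.28 CPM at 6 h. S1PR3 was between 0.625 and 0.837 CPM in the controls and between 2.41 and 3.02 CPM at 6 h, with a 2 h range of 0.589 to 1.63 CPM that overlapped the controls. LPAR3 was between 0.187 and 0.662 CPM in the controls and between 1.85 and 2.55 CPM at 6 h. EDA, named after its values were seen, differed from the rest. It was between 0.463 and 1.06 CPM in the controls and between 2.32 and 3.02 CPM at 6 h with dCBP or IHK-44, but at 0.872 CPM with 1000 nM A485 and 1.02 CPM with 100 nM A485 at 6 h, inside the range of the controls.

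Genes of vesicles, synapses and neurons gave 13 members with a median of 3.61 CPM at 6 h: RAB3A, RAB27A, SCAMP5, ICA1 and DNAJC6 (vesicle traffic), SLC17A7 (vesicular glutamate carrier), SNCAIP (partner of alpha-synuclein), NYAP1, IGSF9B, MAPRE3 (microtubule ends), ARHGAP44, the neuronal enolase ENO2 and RIMKLA. ENO2 was between 1.26 and 1.74 CPM in the controls, between 1.19 and 1.99 CPM at 2 h and between 7.50 and 9.98 CPM at 6 h. SLC17A7 was between 0.420 and 0.596 CPM in the controls and between 2.32 and 3.61 CPM at 6 h. Of the 6 neuronal markers, SNAP25, STMN2 and ELAVL4 were listed at 0 in all libraries. The other 3 had a higher mean in the 4 libraries of dCBP and IHK-44 at 6 h than in the controls: TUBB3 at 20.4 against 9.08 CPM, RBFOX3 at 1.22 against 0.685 CPM and SYN1 at 1.04 against 0.254 CPM. Their part in the levels of this group was not tested. ARHGAP44, a GTPase-activating protein, was at 0.3001, 0.463, 0.874 and 0 CPM in the controls (DMSO 2 h and 6 h, NT 2 h and 6 h), and between 2.86 and 3.47 CPM at 6 h with dCBP or IHK-44. A485 left it between 0.721 and 0.819 CPM in all 4 libraries, within the range of the controls. It overlaps ELAC2, which was far higher, at 131 to 147 CPM in the controls and 162 to 197 CPM at 6 h with dCBP or IHK-44. The gap between these ranges exceeds the whole level of ARHGAP44. Whether reads of ELAC2 were counted for ARHGAP44 was not tested.

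Metabolic enzymes and transporters gave 17 members, with a median of 5.47 CPM at 6 h. All these functional groups were assigned by hand from background knowledge. Low genes of each kind were not counted, so the sizes of the groups are not read as a make-up of the set. They act on sugars and glycans (FN3K, KHK, CRYL1, FUCA1, HPSE, MGAT4A, PIGZ), on lipids (ELOVL7, CDS1, GDPD1, STARD5, OSBP2, ATP10D, and ZDHHC23, which attaches palmitate to proteins), on arginine (ARG2) and in transport (SLC16A14, NIPAL3). FN3K, a kinase that repairs glycated proteins, was between 0.750 and 2.12 CPM in the controls and between 8.27 and 11.6 CPM at 6 h. Per length of transcript it was the highest member at 6 h, at 8.11 CPM per kilobase, and NKD1 was the lowest at 0.124. NIPAL3 was between 0.926 and 1.80 CPM in the controls, between 1.98 and 3.49 CPM at 2 h and between 9.63 and 14.6 CPM at 6 h. The transporter SLC16A14 was between 0.125 and 1.03 CPM in the controls and between 2.26 and 4.63 CPM at 6 h. MGAT4A, which branches N-glycans, was between 0.120 and 0.625 CPM in the controls and between 2.12 and 5.29 CPM at 6 h. GDPD1 was at 0.180, 0.529, 0.937 and 0.257 CPM in the controls, between 4.25 and 8.04 CPM at 6 h with dCBP or IHK-44, and at 2.13 and 3.05 CPM with 1000 nM A485 against 0.420 and 1.09 CPM with 100 nM (2 h and 6 h; log2 difference 1.75, SE 0.41, adjusted p = 0.03318 by edgeR).

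The desmosome protein DSP and the muscle protein CMYA5 belong to cell junctions and muscle structure. DSP was between 0.708 and 1.31 CPM in the controls, between 1.40 and 2.08 CPM at 2 h and between 4.13 and 7.52 CPM at 6 h. CMYA5 was between 0.840 and 1.74 CPM in the controls and at 5.75, 4.82, 8.72 and 4.82 CPM at 6 h (dCBP 1000 and 100 nM, IHK-44 1000 and 100 nM). The remaining 15 members are MINDY1 (a deubiquitinase), VPS37D (ESCRT), TIGD3 (derived from a transposase), ZFYVE28, SPAG1, CMTM8, RUNDC3B, PRSS16, RNASE4, FNDC4, TMEM150C, ZSWIM5, FAM78A, FAM241A and C3orf33. By symbol families, the 74 genes held 2 of 180 low ion channel genes, 2 of 552 low G protein-coupled receptor genes, 2 of 235 low carrier and pump genes, and 0 of 200 low genes of secreted ligands, 0 of 150 of cytoskeleton and cilia, 0 of 151 of ubiquitin ligases and 0 of 24 interferon-stimulated genes. By these patterns 60 of the 74 fell in none of the families. The patterns miss members grouped by function above, among them GFI1, TLX3, MNX1, ONECUT2, IRAK2, SBK1 and EDA. The family counts are therefore incomplete, and no make-up of the set is read from them.

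**Figure D4:**
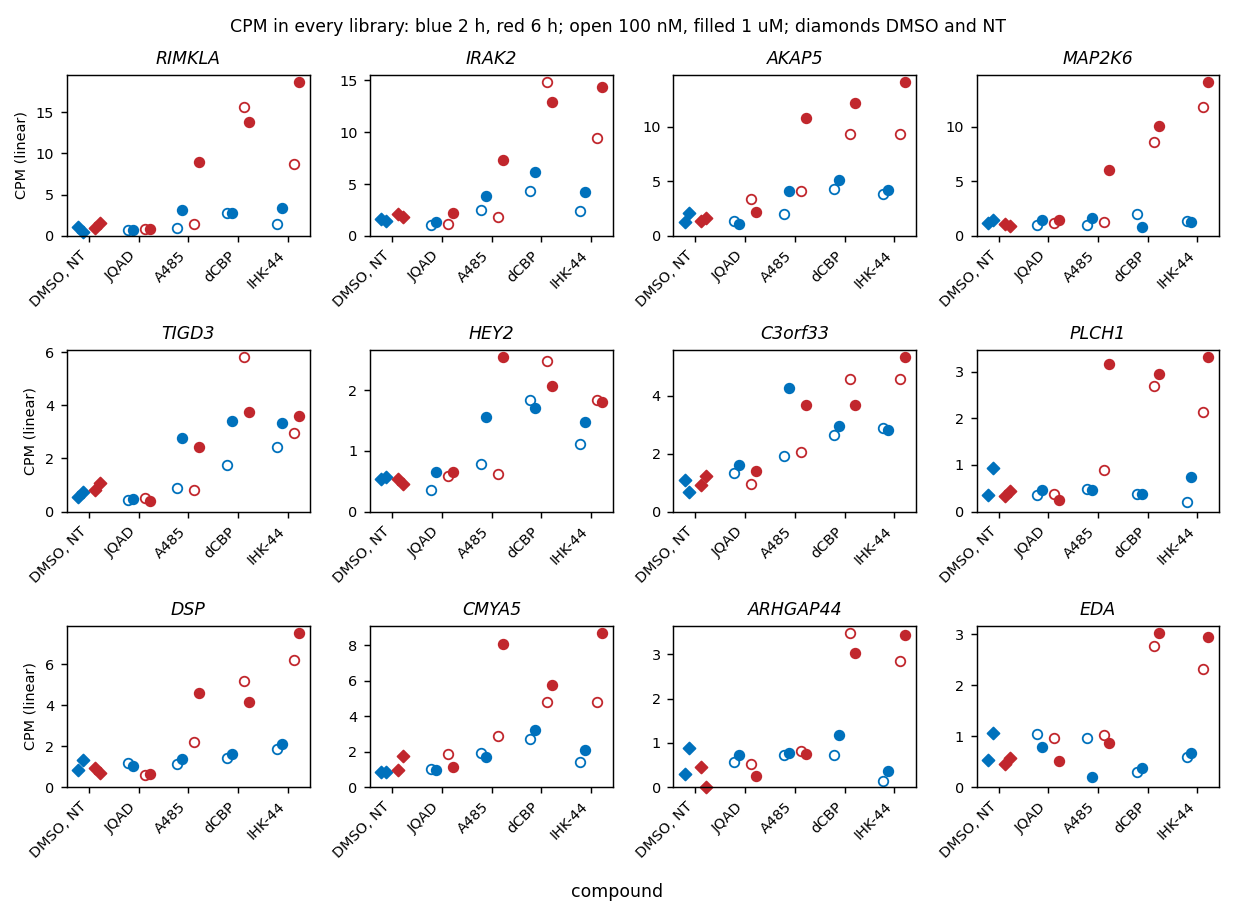
CPM of 12 members in every library (linear axes from 0; blue 2 h, red 6 h; open circles 100 nM, filled circles 1000 nM; diamonds are DMSO, left, and NT, right). MAP2K6 and PLCH1 are at control level at 2 h, TIGD3, HEY2 and C3orf33 already stand above JQAD then, and ARHGAP44 and EDA stay low with A485.

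The level at 2 h was next compared with JQAD, with libraries that played no part in choosing the genes. The 4 libraries of dCBP and IHK-44 at 2 h were all above both JQAD libraries of 2 h in 35 of the 74 genes, where 28.9% of the 13294 genes tested showed the same order. In the test, 69 of the 74 had a positive log2 difference (51.9% of all genes) with a median of 0.64, against 0.012 over all genes. After adjustment 3 members were higher and 0 lower, where 3.42% of all genes were called higher and 3.29% lower, so the share of called members (4.05%) was close to the background. With dose as a block 7 members (9.46%) were called higher, where 4.43% of all genes were. Without adjustment 18 members were higher with a p under 0.05, where 12.7% of all genes were. The 3 were TIGD3 (log2 difference 2.54, SE 0.61, adjusted p = 0.03096), ATP10D (1.70, SE 0.43, adjusted p = 0.03694 by edgeR) and AKAP5. TIGD3 was at 3.40, 1.77, 3.34 and 2.44 CPM in dCBP 1000 and 100 nM and IHK-44 1000 and 100 nM, against 0.456 and 0.420 CPM in JQAD. ATP10D, a lipid flippase, was at 1.33, 1.55, 1.71 and 1.05 CPM against 0.456 and 0.350 CPM, although the controls held between 0.515 and 0.993 CPM. Leaving out a single library left a compound with 1 library at 2 h. Whichever library was left out, most calls of members were then lost, and calls over all genes fell too. The log2 difference then lay between 2.26 and 2.73 for TIGD3, between 1.52 and 1.91 for ATP10D and between 1.556 and 1.875 for AKAP5.

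The members differed in how much of their 6 h level was there at 2 h. Taken over JQAD of the same time, the excess at 2 h was 15.4% of the excess at 6 h in the median, with quartiles of 7.99% and 26.9%. It was at least 50% in 4 genes, HEY2 (72.5%), TIGD3 (64.1%), STARD5 (57.6%) and GABRR2 (50.5%), of which STARD5 is named after its values were seen. In 23 genes it was under 10%, among them MAP2K6 (1.25%), PLCH1 (0.679%) and ENO2 (3.83%). The limits of the choice were reached at 2 h by 7 members for dCBP and 7 for IHK-44 at the high dose and by 1 member for each at the low dose, where 1.03% (dCBP, high dose), 0.268% (IHK-44, high dose), 0.764% (dCBP, low dose) and 0.0671% (IHK-44, low dose) of the 7457 low genes reached them. No member reached them in all 4 of these libraries, and 60 reached them in none.

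Between dCBP and IHK-44 at 2 h, 0 members and 0 of 13294 genes were called by edgeR, with 2 members higher with dCBP at an unadjusted p under 0.05 (3.81% of all genes) and 0 members called by DESeq2. The median log2 difference of the members was 0.08. The intervals were wide: for ARHGAP44 the log2 difference was 1.93 with a 95% interval of 0.66 to 3.20 (adjusted p = 0.7107, edgeR). The doses at 6 h, which the choice used, are given as a description. IHK-44 at 1000 nM was above 100 nM in 69 of the 74 genes (61.2% of the genes tested), and dCBP at 1000 nM above 100 nM in 34 (50.9%). The highest of the 20 libraries was 1000 nM IHK-44 in 31 members, 100 nM dCBP in 25, 1000 nM dCBP in 15 and 100 nM IHK-44 in 1, all at 6 h. For GABRR2 and HEY2 it was A485 at 1000 nM.

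A485 was compared with JQAD at the same doses and times, with no dose term in the main fit. At 6 h both A485 libraries were above both JQAD libraries in 53 of the 74 genes, where 37.4% of all genes tested showed this order. The log2 difference was positive in 71 of 74 (50.1% of all genes) with a median of 1.27, against 0.001 over all genes. Adjusted over all genes, 9 members were higher and 0 lower, where 4.28% of all genes were called higher and 6.97% lower. With dose as a block 20 members were called higher, where 5.32% of all genes were. Without adjustment 47 members were higher with a p under 0.05, where 15.0% of all genes were. The 9 were DSP, ZFYVE28, ZDHHC23, CMYA5, CDS1, HPSE, PLCH1, ADCY1 and MNX1. DSP was at 4.61 CPM with 1000 nM and 2.18 CPM with 100 nM A485, against 0.646 and 0.592 CPM with JQAD (log2 difference 2.33, SE 0.40, adjusted p = 0.01273, edgeR). ZFYVE28, a zinc finger protein of endosomes, was at 1.68 and 0.819 CPM against 0.0646 and 0.222 CPM, which is few reads (log2 difference 3.00, SE 0.70, adjusted p = 0.02616 by edgeR).

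The next 4 members by adjusted p were enzymes and a muscle gene with more reads. ZDHHC23 was at 4.23 and 2.39 CPM with 1000 and 100 nM A485 at 6 h against 0.969 and 0.962 CPM with JQAD (log2 difference 1.66, SE 0.40, adjusted p = 0.02771 by edgeR). CMYA5 was at 8.09 and 2.87 CPM against 1.16 and 1.85 CPM (log2 difference 1.76, SE 0.43, adjusted p = 0.02807 by edgeR). CDS1, which makes CDP-diacylglycerol, was at 5.10 and 2.46 CPM against 0.646 and 1.48 CPM (log2 difference 1.74, SE 0.43, adjusted p = 0.02837 by edgeR). HPSE, the heparan sulfate cleaving enzyme, was at 5.35 and 3.27 CPM against 1.87 and 1.70 CPM (log2 difference 1.16, SE 0.29, adjusted p = 0.03044 by edgeR). In each of these 4 both A485 libraries lay above both JQAD libraries. The count of called members rests on single libraries. The calls were lost without 1000 nM A485 or without 1000 nM JQAD and grew in number without 100 nM A485. Calls over all genes fell and rose in the same cases. With single libraries left out, the log2 difference lay between 1.77 and 2.72 for DSP, between 0.902 and 2.28 for CMYA5 and between 0.832 and 1.42 for HPSE. Without TMM scaling the count of members was 26. Calls over all genes then went from 569 higher and 927 lower to 1384 higher and 809 lower, and the median of all genes moved by 0.10 on the log2 scale.

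**Figure D5:**
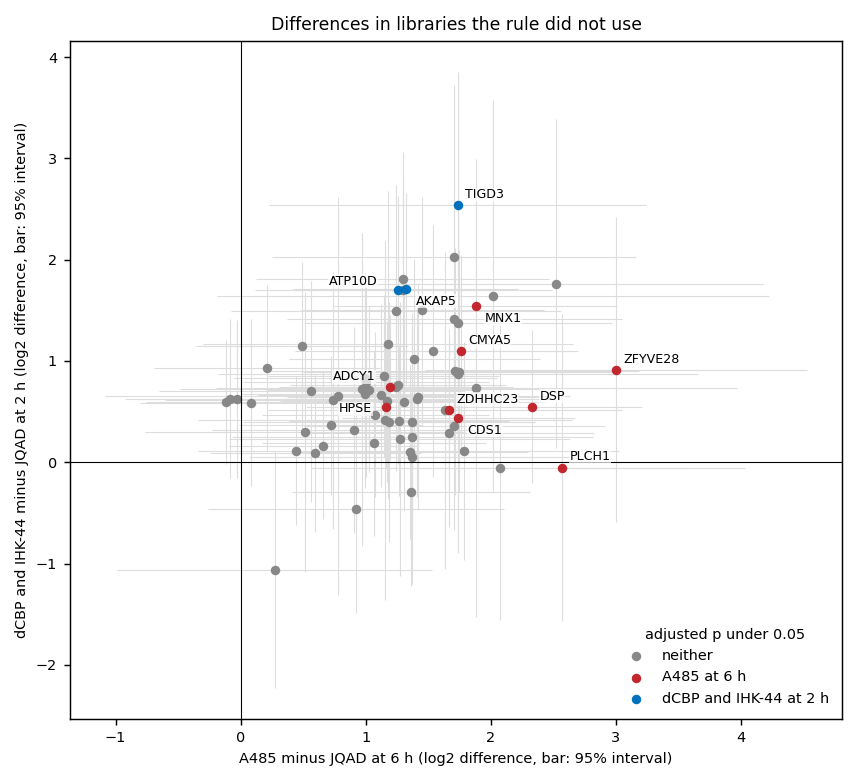
Log2 difference of the 74 genes for A485 minus JQAD at 6 h (horizontal) and for dCBP and IHK-44 minus JQAD at 2 h (vertical), from libraries the choice did not use and with no library in common, with 95% intervals as grey bars. Points are mostly right of 0 and above 0. The 9 genes with an adjusted p under 0.05 at 6 h are red and the 3 at 2 h blue.

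At 2 h the comparison of A485 with JQAD called 0 members and 0 of all genes by edgeR, with 10 members higher at an unadjusted p under 0.05 (8.76% of all genes) and 0 members called by DESeq2. The log2 difference was positive in 65 of 74 (50.9% of all genes) with a median of 0.37, against 0.005 over all genes. MNX1 had the smallest p, at 3.56 and 1.92 CPM with A485 against 0.717 and 0.699 CPM with JQAD (log2 difference 1.87, 95% interval 0.77 to 2.98, adjusted p = 0.1768 by edgeR). MNX1 and PLCH1 are described with values here although the rule for named genes did not pick them, and were chosen after their values were seen. Whether the difference grew from 2 h to 6 h was tested as an interaction, which called 0 members (8 higher with an unadjusted p under 0.05, where 3.17% of all genes were, and 0 called by DESeq2), so a growth between the times was not shown for any of them. DSP had the smallest p of it, with an interaction of 2.23 (95% interval 0.97 to 3.49, adjusted p = 0.3955 by edgeR).

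The doses of A485 were compared over both times. At 1000 nM the level was above that at 100 nM at 6 h in 71 of the 74 genes (64.0% of all genes tested). In the test, 32 members were higher at 1000 nM with an unadjusted p under 0.05, where 6.48% of all genes were. After adjustment 7 were called higher and 0 lower, where 0.602% of all genes were called higher and 3.05% lower. These 7 were RIMKLA, ONECUT2, AKAP5, GDPD1, VPS37D, RCAN3 and TIGD3. VPS37D was at 5.11 and 5.17 CPM with 1000 nM (2 h and 6 h) and at 2.16 and 2.66 CPM with 100 nM (log2 difference 1.03, SE 0.25, adjusted p = 0.04084 by edgeR). RCAN3 was at 1.62 and 3.92 CPM against 0.540 and 0.887 CPM (log2 difference 1.82, SE 0.45, adjusted p = 0.04166 by edgeR). AKAP5 had a log2 difference of 1.14 (SE 0.26, adjusted p = 0.02697 by edgeR). The count was 2 with DESeq2, where 42 of all genes were called higher, against 80 in the main fit. The calls did not all hold when single libraries were left out. AKAP5 and TIGD3 were called both here and at 2 h with dCBP and IHK-44.

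Set against the level reached with dCBP and IHK-44 at 6 h, the A485 library of 1000 nM at 6 h held 66.4% of it in the median member, and that of 100 nM 31.9%. JQAD at 6 h held 20.4% and the controls 18.5%. The range for 1000 nM A485 ran from 23.4% (ARHGAP44) to 134% (CMYA5). A485 at 1000 nM was above every control and JQAD library in 72 of the 74 genes (45.4% of all genes tested), below all 4 libraries of dCBP and IHK-44 at 6 h in 48 (30.4%) and above all 4 in 2 (24.1%), GABRR2 and HEY2. The choice took genes that were low in the controls and high in those 4 libraries, so it favours these orders and nothing is read from the shares. GABRR2 was at 4.42 CPM there, against 3.04 to 4.28 CPM in those 4 libraries. By the limits of the choice, which 1.62% of the low genes reached with 1000 nM A485 at 6 h and 0.228% at 2 h, 47 members were past them at 6 h and 5 at 2 h. With 100 nM A485 0 members were past them at 6 h (0.711% of low genes) and 0 at 2 h (0.0536%). The 26 members that reached them in no A485 library include EDA, EDARADD, ARHGAP44, NKD1, SNCAIP and SLC17A7.

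The JQAD libraries lay near the controls. No member reached the limits in any JQAD library, where the shares of low genes were 0.0134% (1000 nM, 2 h), 0.0134% (1000 nM, 6 h), 0.0% (100 nM, 2 h) and 0.483% (100 nM, 6 h). At 6 h both JQAD libraries were above the control mean in 27 members and both below it in 18. The shares over all genes were not counted, so nothing is read from these numbers. Since the controls were part of the choice, JQAD was not tested against them, and a small response cannot be told from none with 1 library per dose and time.

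The members lay on 21 chromosomes, with 11 on chromosome 1. Adjacent members were NIPAL3 and RCAN3 on chromosome 1, both on the plus strand with 29360 bases between them, and C3orf33 and PLCH1 on chromosome 3, both on the minus strand with 17545 bases between them. In each pair the first gene lies upstream in the direction of transcription. C3orf33, named after its values were seen, was at 2.96, 2.65, 2.82 and 2.90 CPM at 2 h (dCBP 1000 and 100 nM, IHK-44 1000 and 100 nM) against 0.687 to 1.22 CPM in the controls, and at 3.69, 4.60, 5.35 and 4.58 CPM at 6 h. PLCH1 was at 0.370, 0.368, 0.743 and 0.198 CPM at 2 h and at 2.95, 2.69, 3.31 and 2.14 CPM at 6 h. At 2 h the upstream gene of this pair was thus above its controls and the downstream gene was not. At 6 h both were above them by the choice of genes. In the other pair, NIPAL3 was at 2.14, 2.50, 3.49 and 1.98 CPM at 2 h, above its controls at 0.926 to 1.80 CPM. RCAN3 was at 1.41, 1.99, 1.26 and 2.21 CPM at 2 h, above the controls (0.453 to 1.38 CPM) in 3 of the 4 libraries. Whether reads of one gene run on into the next was not tested.

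Of the 74, 11 overlap an adjacent coding gene, and 9 had fractional expected counts in at least 1 library (among them STARD5, SGK3, RCAN3, KHK, ARG2, S1PR3, OSBP2 and RNASE4), so their levels are less certain. RNASE4 shares its place with ANG, which was between 0.0662 and 0.386 CPM in the controls and between 1.16 and 2.05 CPM at 6 h. The members had a median genomic span of 52632 bases, against 23687 bases for other low genes with a control mean in the same range and 32837 bases for genes with a control mean of at least 2 CPM.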

How the data were processed

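Per the labels, total RNA of RH4 cells was sequenced in 20 conditions with 1 library each. The deposited files hold the same 18980 coding genes, named by symbol. Per the file headers, the authors gave an expected count (estimated reads per gene), a TPM and an FPKM value, and a normalised count. That normalised count was found to equal the CPM of the coding rows of the deposited files. TPM and FPKM as deposited by the authors were scaled over all genes they quantified. STAR 2.5.3a and RSEM 1.3.3 are named in the submitters' processing notes, without a role, and the strand setting is not given in the sources used here.

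The 74 members were taken from CPM, and TPM served as an alternative. The members, the gene lists and the functional groups were chosen with earlier results of these data known. Expected counts of the 12 libraries that the choice did not use were rounded and fitted with edgeR 4.0.16 (R 4.3.3, quasi-likelihood test, TMM scaling), with 1 level per compound and time (6 residual degrees of freedom), or with dose terms (4 residual degrees of freedom), for 13294 genes with a mean of at least 0.3 CPM over the 20 libraries. An adjusted p (Benjamini-Hochberg over all genes) under 0.05 was a call. Settings tried were DESeq2 1.42.0, limma 3.58.1 on log2(CPM + 0.5), other filters, a dose block, single libraries left out and, chosen after seeing the data, library sizes without TMM. The FPKM values served to recover the total of all quantified reads. The fits were tested on simulated data.

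Genes with values in full were the 10 highest at 6 h, up to 6 with the smallest adjusted p in a comparison, those nearest the limits and up to 4 per symbol family. Other members are given by function. Promoters came from RefSeq (GRCh38.p14), matched by symbol or a unique older symbol. Python 3.11.15 with pandas 2.3.3 did the rest. The 12 ChIP-seq and ChRO-seq samples were not analysed here. The member counts and medians cover all 74 genes, of which 1 is not reported by name here.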

Additional observations from a re-analysis of the deposited data

Results flagged for a closer look

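Members were called in a pair of comparisons between compounds that the choice of genes left free. Between A485 and JQAD at 6 h, the test of the difference itself called 9 members higher with A485 and 0 lower, where 4.28% of all genes were called higher. With dose as a block it called 20 (27.0%) higher, where 5.32% of all genes were. Between dCBP with IHK-44 and JQAD at 2 h it called 3 members higher and 0 lower (4.05%), which is close to the 3.42% of all genes called higher. With dose as a block it called 7 (9.46%) higher, where 4.43% of all genes were. When single libraries were left out, most calls of members were lost in the comparison at 2 h. In that at 6 h they held or were lost depending on the library. Calls over all genes changed too in both comparisons. Without the block, the spread in both comes from doses standing in for replicates.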

How the results depend on the processing

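No paired analysis was possible because the labels give no replicate numbers. Doses match between compounds, but the main comparisons of compounds did not use this match. Dose as a block was an alternative setting. The number of members called higher for A485 against JQAD at 6 h (9) was 28 with no filter, 17 with limma, 20 with dose as a block, and 26 both without TMM factors and with library sizes over all quantified reads. Over all genes, 569 of 13294 were called higher in the main fit. With no filter this was 976 of 16724, with limma 1332, with dose as a block 707, and 1384 and 1383 in the last 2 settings. For dCBP and IHK-44 against JQAD at 2 h (3) the number of members was 7 with no filter, 5 with limma and 7 with dose as a block. All genes called higher there were 638, 738 and 589, against 454 in the main fit. For A485 dose (7) the number of members was 2 with DESeq2, 11 with no filter and 3 in the A485 libraries alone. All genes called higher there were 42, 147 and 23, against 80 in the main fit. The interaction (0) stayed at 0 in every setting that kept all libraries. Leaving out a single library left a compound and time with 1 library, and the calls of members in the other 3 comparisons did not all hold. For dCBP and IHK-44 against JQAD at 2 h most of them were lost. In the comparisons of A485 with JQAD at 6 h and of dCBP and IHK-44 with JQAD at 2 h, calls over all genes then changed too. No member was called lower in any of these settings. Under TPM the choice gave 8 genes, 5 of them members, and with TMM scaling it gave 53, all members. With DMSO alone as control it gave 77 genes, 63 of them members, and with NT alone 74, 66 of them members. Of 171 values of named genes under these settings, 114 kept their call, 57 lost it (48 by leaving out a library) and 0 changed sign. Where the cause of a change in count is not the number of libraries or genes, the cause was not tested. Reads per member, at times 0 in a control library, limit every ratio.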
